A study of Mus musculus with 30 samples.

Results

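Motile cilia genes are genes that build, power or switch on the beating cilia of airway, ependymal and oviduct epithelium. The set held 40 genes, taken by name from a list that was chosen with earlier results of these data known. All 40 were found among the 55011 genes counted in mTEChi, the medullary thymic epithelial cells (mTECs) of the sort that is rich in mature cells. The same 40 were found among the 35999 gene symbols of Aire-GFP+ mTECs, which were sorted on a green fluorescent reporter of Aire. By role, 4 were regulators, 5 belonged to the outer dynein arm, 6 to the inner dynein arms, 4 to the molecular ruler and the nexin-dynein regulatory complex, 3 to the radial spokes, 7 to the central apparatus and 7 to the doublet microtubules and their tethers, and 4 were other cilia genes. All 40 passed the filter on low counts in mTEChi and 36 passed it in Aire-GFP+ cells, where Rsph4a, Spag6, Sntn and Tmem212 did not.

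The series measured mRNA in mouse mTECs to ask how Aire, the factor that lets mTECs transcribe tissue-restricted genes, chooses its targets. It held 30 samples, of which 21 were used: 16 mTEChi libraries and 5 Aire-GFP+ libraries. Samples from NOD mice (6) and from hybrids of both strains (3) were not analysed here. Each library came from 1000 sorted cells.

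All mice used here were C57BL/6J females of 4 to 6 weeks. The Aire-GFP+ groups were WT (3 libraries) and Aire-KO (2 libraries), both without treatment. The mTEChi groups had 2 libraries each. WT and Aire-KO mice were given intraperitoneal PBS or spermidine, a polyamine. WT mice were given intraperitoneal DMSO, a solvent, or topotecan, a topoisomerase I inhibitor. The last pair was untreated Foxn1-cre,Nfe2l2+/+ and Foxn1-cre,Nfe2l2 fl/fl mice, so both carried the Cre, which Foxn1 directs to thymic epithelium. Nfe2l2 encodes the antioxidant response factor NRF2. The sources used here do not say how the Aire-KO allele was made, which exons of Nfe2l2 are floxed, the doses, or whether the replicates came from separate mice, so the p-values measure the spread between libraries, which may be technical.

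A motile cilium beats because dynein motors, anchored on the outer doublet microtubules, slide the doublets against each other, while radial spokes and a central apparatus set the waveform. Multiciliated cells are specified by the coactivators Gmnc and Mcidas, which act with E2F and Myb factors to multiply centrioles and to induce Foxj1 and the RFX factors, and these in turn switch on the axoneme genes. In the thymus, rare medullary epithelial cells take on programs of peripheral cell types, ciliated cells among them, and tissue-restricted transcripts are also scattered at low level over Aire-expressing cells. Bulk libraries cannot tell fewer cells of a type from less RNA per cell.

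RFX factors bind the X-box, and its letters were searched for in RefSeq promoter windows (assembly GRCm38.p6, 250 bases before to 50 after each start, 300 bases in all). The search used GTNNCCNGNAAC, GTNNCCNNGNAAC, GTNNCCNNNGNAAC and GTNNCCNNNNGNAAC on both strands. Windows were found for 35 of the 40 genes, and not for Foxj1. The X-box letters were in 12 of the 35 (34.3%), against 5.94% of all 27025 genes with a window. The 12 were Rfx2, Dnah9, Dnaic1, Dnaic2, Spag6l, Spag16, Spag17, Hydin, Spef2, Tekt2, Tekt4 and Cfap44. Of these promoters 4 are shown, each as the 150 bases before the start, and they were picked by their calls. They place X-box letters before the start of genes called lower in Aire-KO cells (Hydin and Cfap44). The same holds for genes that did not pass there (Dnaic2 and Spag16). Cfap44 passed only for the mean of the PBS and spermidine effects in mTEChi. Capitals mark the X-box letters.
Hydin: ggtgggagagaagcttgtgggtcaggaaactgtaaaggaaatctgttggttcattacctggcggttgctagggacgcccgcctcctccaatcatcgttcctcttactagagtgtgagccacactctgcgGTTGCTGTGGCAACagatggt
Cfap44: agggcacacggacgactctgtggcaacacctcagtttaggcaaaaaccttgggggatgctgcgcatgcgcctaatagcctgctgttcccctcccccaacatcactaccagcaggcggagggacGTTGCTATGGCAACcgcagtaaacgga
Dnaic2: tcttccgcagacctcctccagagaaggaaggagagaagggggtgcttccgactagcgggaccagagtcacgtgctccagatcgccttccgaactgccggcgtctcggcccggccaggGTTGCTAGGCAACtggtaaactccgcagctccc
Spag16: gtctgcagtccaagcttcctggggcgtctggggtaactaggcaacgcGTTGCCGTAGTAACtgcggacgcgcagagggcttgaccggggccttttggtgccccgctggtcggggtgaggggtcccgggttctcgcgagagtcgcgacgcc
The Hydin stretch is chr8:110266827-110266976, and its X-box letters lie at -21 to -8, counting -1 as the base before the start. The Cfap44 stretch is chr16:44394649-44394798 with the letters at -27 to -14. The Dnaic2 stretch is chr11:114727269-114727418 with the letters at -33 to -21, and the Spag16 stretch is chr1:69826820-69826969 with the letters at -103 to -90. All 4 stretches are on the plus strand. The forkhead core TGTTTAC was in 3 of the 35 windows (8.57%, against 4.05% of all genes), those of Cfap43, Ak7 and Sntn. The antioxidant response letters TGACNNNGC were in 3 (8.57%, against 14.0%), and the repeat CACACACACA was in 0 of 35, against 1.86% of all genes. A match is a description of letters and not of binding.

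Library totals ran from 2027200 to 5724040 counts in mTEChi and from 6577150 to 12612800 in Aire-GFP+ cells. Levels are in CPM, counts scaled to a common library total, after TMM scaling unless said otherwise. Aire itself did not check the genotype by level: it was 1630 ± 12.5 CPM (SD, n = 2) in PBS WT and 4616 ± 650 CPM in PBS Aire-KO mTEChi, and it was 1653 ± 44.1 (n = 3) against 1641 ± 188 CPM (n = 2) in Aire-GFP+ cells. Nfe2l2 was at 91.1 CPM in Nfe2l2+/+ and 96.0 CPM in Nfe2l2 fl/fl libraries on average. Counts over a whole gene do not show a deletion of part of it.

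Added up, the 40 genes stood lower in Aire-KO libraries than in the matching WT libraries. In Aire-GFP+ cells the sum was 359, 480 and 363 CPM in the 3 WT libraries and 231 and 280 CPM in the 2 Aire-KO libraries. In PBS mTEChi it was 559 and 716 CPM in WT and 338 and 342 CPM in Aire-KO. In spermidine mTEChi it was 835 and 721 CPM in WT and 330 and 309 CPM in Aire-KO. No Aire-KO library reached the lowest matching WT library in any of the 3 sets. The sum was 1.57-fold, 1.87-fold and 2.44-fold lower in Aire-KO, in that order, as the ratio of group means. The sums carry no test, since the members were chosen with earlier results of these data known.

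The same sum also varied between WT mTEChi groups. It was 367 and 433 CPM in the DMSO libraries, 541 and 587 CPM in Nfe2l2+/+, 596 and 439 CPM in Nfe2l2 fl/fl, and 418 and 888 CPM in the topotecan libraries. The DMSO libraries thus lay closer to the 4 Aire-KO libraries (309 to 342 CPM) than to the PBS WT libraries. The 3 genes of highest level, Dnaic2, Dnah9 and Tppp3, made up much of every sum. Without them the Aire-KO mTEChi libraries held 170 to 187 CPM and the PBS and spermidine WT libraries 364 to 583 CPM.

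**Figure D1:**
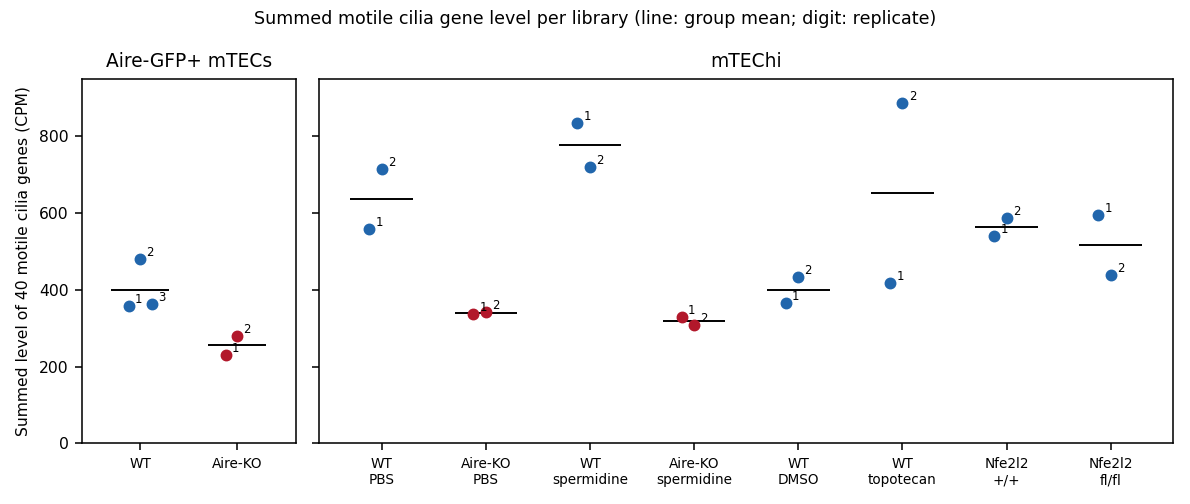
Summed level of the 40 motile cilia genes in CPM (vertical axis) for each library, by group (horizontal axis), in Aire-GFP+ mTECs and mTEChi; points are libraries with their replicate number, lines are group means, and Aire-KO groups are red. The 4 Aire-KO mTEChi libraries sit between 309 and 342 CPM, and topotecan replicate 2 is the highest of all at 888 CPM.

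Per length, Dnaic2 and Tppp3 led the set in both sorts. In WT Aire-GFP+ cells Dnaic2 stood at 38.5 ± 7.11 TPM (SD, n = 3) and Tppp3 at 35.4 ± 11.5 TPM, levels that do not differ beyond their spread. Rsph9 (17.3 ± 1.46 TPM), Rsph1 (14.7 ± 2.31 TPM) and Mcidas (10.6 ± 3.87 TPM) came next, and 8 genes were below 1 TPM, from Hydin at 0.911 TPM down to Sntn at 0.070 TPM. In the 6 control mTEChi libraries (PBS, DMSO and Nfe2l2+/+), Tppp3 led with 25.3 ± 5.17 CPM per kb, followed by Dnaic2 (16.2 ± 5.36), Rsph1 (10.01 ± 6.37), Foxj1 (9.70 ± 3.16) and Mcidas (8.27 ± 4.29). Foxj1 ranked 4th there and 26th in Aire-GFP+ cells, where it stood at 2.02 ± 1.51 TPM. The sorts were counted by different tools, so this difference in rank has no test.

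Across the comparisons of Aire-KO with WT, no motile cilia gene was called higher. The edgeR quasi-likelihood test called genes at an adjusted p below 0.05. In Aire-GFP+ cells it called 15 of 36 tested members lower and 0 higher, where 41.3% of all 17923 genes tested were called, 22.3% lower and 19% higher. In PBS mTEChi it called 7 of 40 lower, where 10.3% of 18418 genes were called, 5.08% lower and 5.21% higher. In spermidine mTEChi it called 9 of 40 lower, where 9.11% were called, 4.34% lower and 4.77% higher. For the mean of the PBS and spermidine effects, which uses 4 libraries of each genotype, it called 20 of 40 lower, where 22.8% were called, 12.5% lower and 10.3% higher.

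The fitted log2 fold changes of the members had a median of -1.13 in Aire-GFP+ cells, -1.45 in PBS mTEChi, -1.93 in spermidine mTEChi and -1.77 for the mean effect, while the median of all genes tested was -0.12, -0.05, -0.04 and -0.05. These medians did not change with genes lacking counts in Aire-KO placed at their bound. For 27 of the 40 members every Aire-KO library lay below every WT library in Aire-GFP+ cells (34.6% of all genes tested), for 29 in PBS mTEChi (29.7%) and for 37 in spermidine mTEChi (29.4%). This held in all 3 sets for 20 members, all among the 36 tested in both tables (12.1% of the 15649 genes tested in both). With all 4 Aire-KO against all 4 WT libraries, 23 members lay below without overlap (13.4%) and 0 lay above (13%).

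**Figure D2:**
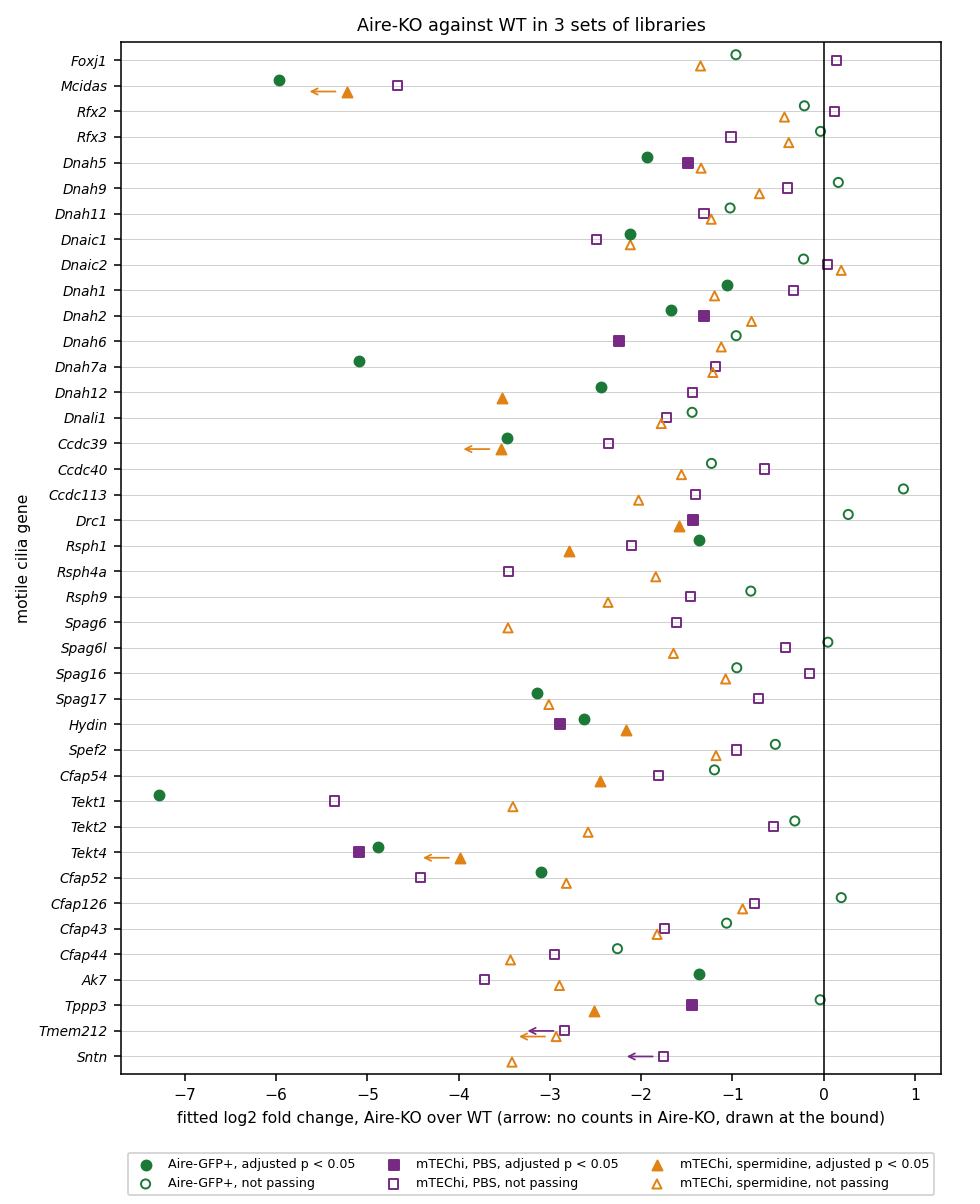
Log2 fold change of Aire-KO over WT (horizontal axis) for each motile cilia gene (vertical axis, by role) in Aire-GFP+ mTECs and in PBS and spermidine mTEChi; filled symbols passed the edgeR test at an adjusted p below 0.05, open symbols did not, and arrows mark genes without counts in Aire-KO, drawn at their bound. All filled symbols lie to the left of 0, and Rfx2 and Dnaic2 lie close to 0 in every set.

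Calls were shared in part. Drc1, Hydin, Tekt4 and Tppp3 were called lower in both PBS and spermidine mTEChi, which is 57.1% of the 7 and 44.4% of the 9. Between Aire-GFP+ cells and the mean mTEChi effect, which share no libraries, 11 genes were called in both, 73.3% of the 15 and 55.0% of the 20. They were Mcidas, Dnah5, Dnah2, Dnah12, Ccdc39, Rsph1, Hydin, Tekt1, Tekt4, Cfap52 and Ak7. Another 16 members were called in none of the 4 comparisons. Of the 20, Rsph4a and Tmem212 were not tested in Aire-GFP+ cells, so their calls could not be shared. Among all genes tested, 5.08% were called lower with PBS and 4.34% with spermidine. The shares were 22.3% in Aire-GFP+ cells and 12.5% for the mean mTEChi effect. How many of all genes were called lower in both of a pair was not counted, so the sharing has no background.

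Among the regulators, Mcidas fell and the 3 transcription factors did not pass. Mcidas, the coactivator that starts the multiciliated program (chr13:112993845-113000394), was at 17.1, 29.0 and 15.3 CPM in WT Aire-GFP+ libraries and at 0.238 and 0.379 CPM in Aire-KO. It fell by 5.97 on the log2 scale there (SE 0.52, adjusted p = 0.000145). In PBS mTEChi it was at 29.9 and 20.4 CPM in WT and 0.434 and 1.38 CPM in Aire-KO, a log2 fold change of -4.67 (SE 1.58) that missed the threshold (adjusted p = 0.0792). In spermidine mTEChi it was at 43.5 and 12.7 CPM in WT and had no counts in either Aire-KO library, at least 37.4-fold lower with 3 counts over the group as the floor (adjusted p = 0.0443). The groups did not overlap in any set.

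Mcidas was also near the Aire-KO level in some libraries with Aire: 1.15 CPM in DMSO replicate 1, 1.99 CPM in topotecan replicate 1 and 0.354 CPM in Nfe2l2 fl/fl replicate 2. The other library of each of those groups was at 20.2, 18.2 and 10.7 CPM.

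Foxj1, the forkhead factor that switches on motile axoneme genes (chr11:116330704-116335399), was at 1.52, 7.84 and 3.59 CPM in WT and 2.50 and 1.99 CPM in Aire-KO Aire-GFP+ libraries. In PBS mTEChi it was at 31.3 and 20.4 CPM in WT and 26.04 and 31.4 CPM in Aire-KO, and in spermidine mTEChi at 52.8 and 44.3 CPM in WT and 18.9 and 19.2 CPM in Aire-KO. The groups overlapped in the first 2 sets and not in the spermidine set, where the log2 fold change of -1.35 (SE 0.51) did not pass (adjusted p = 0.119). Rfx2 had log2 fold changes of -0.21 (SE 0.28), 0.12 (SE 0.38) and -0.43 (SE 0.39) in the 3 sets, and Rfx3 of -0.03 (SE 0.40), -1.01 (SE 0.43) and -0.38 (SE 0.41). None of these passed.

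**Figure D3:**
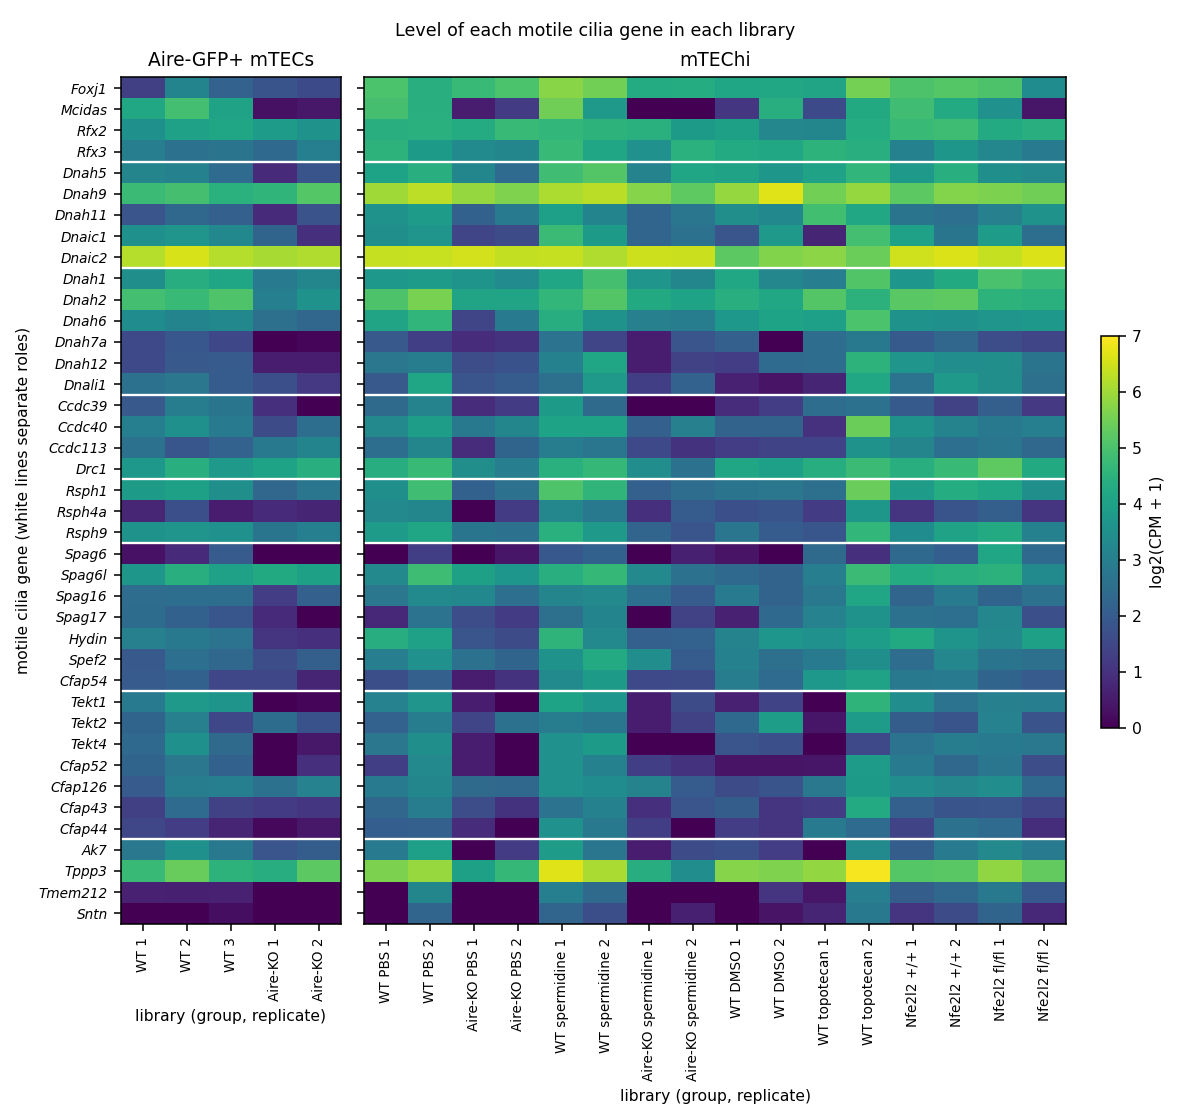
Level of each motile cilia gene (rows, grouped by role) in each library (columns) as log2(CPM + 1), for Aire-GFP+ mTECs and mTEChi; brighter is higher. Mcidas, Tekt1, Tekt4 and Hydin are dark in the Aire-KO columns, while Dnaic2 and Dnah9 are bright in every column.

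Of the 5 outer dynein arm genes, Dnah5 and Dnaic1 were called in Aire-GFP+ cells, Dnah5 in PBS mTEChi, and Dnah5 and Dnah11 for the mean mTEChi effect. The shares of all genes tested called lower there were 22.3%, 5.08% and 12.5%. Dnah5, a heavy chain whose loss causes primary ciliary dyskinesia, was at 8.02, 7.49 and 4.44 CPM in WT and 0.833 and 2.56 CPM in Aire-KO Aire-GFP+ libraries, and it fell by 1.94 on the log2 scale (SE 0.59, adjusted p = 0.0301). PBS-treated mTEChi had it at 15.7 and 19.9 CPM against 8.25 and 4.49 CPM (log2 fold change -1.49, SE 0.45, adjusted p = 0.0473). With spermidine, mTEChi had it at 28.0 and 33.7 CPM against 7.77 and 16.6 CPM, without a call (adjusted p = 0.0623). No Aire-KO library reached a WT library of its set.

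The intermediate chain Dnaic1 was at 10.4, 11.5 and 8.69 CPM in WT and 3.81 and 0.946 CPM in Aire-KO Aire-GFP+ libraries (log2 fold change -2.12, SE 0.56, adjusted p = 0.0176). Its mean mTEChi effect of -2.30 (SE 0.82) did not pass (adjusted p = 0.0579). Dnah11, a heavy chain, was called only in the mean mTEChi effect, at -1.27 (SE 0.34, adjusted p = 0.0158).

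Dnaic2, the other intermediate chain of the arm and 1 of the genes with X-box letters printed above, was not called in any set. It was at 74.2, 94.0 and 73.3 CPM in WT and 67.4 and 71.0 CPM in Aire-KO Aire-GFP+ libraries. In mTEChi its log2 fold change was 0.04 (SE 0.18) with PBS and 0.19 (SE 0.19) with spermidine, where both Aire-KO libraries (87.9 and 86.5 CPM) lay above both WT libraries (81.8 and 70.5 CPM). Dnah9, a heavy chain, had log2 fold changes of 0.16 (SE 0.24), -0.39 (SE 0.27) and -0.70 (SE 0.28) in the 3 sets, none of them called. These 2 genes hold much of the summed level, so the sum moved less than the median member.

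The inner dynein arms held 6 members, and 4 were called lower in Aire-GFP+ cells, 2 in PBS mTEChi, 1 in spermidine mTEChi and 3 for the mean mTEChi effect. Over all genes tested 22.3%, 5.08%, 4.34% and 12.5% were called lower, in that order. Dnah2 (chr11:69420809-69549110) was at 28.9, 25.6 and 32.6 CPM in WT and 7.14 and 10.98 CPM in Aire-KO Aire-GFP+ libraries, and it fell by 1.67 (SE 0.25, adjusted p = 0.00157). In PBS mTEChi it was at 32.0 and 47.5 CPM against 16.1 and 15.9 CPM (log2 fold change -1.31, SE 0.29, adjusted p = 0.0108). In spermidine mTEChi it was at 24.1 and 34.2 CPM against 18.0 and 15.5 CPM, a log2 fold change of -0.79 (SE 0.30) that did not pass (adjusted p = 0.12).

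Dnah12 was at 1.94, 2.91 and 3.02 CPM in WT and 0.476 and 0.473 CPM in Aire-KO Aire-GFP+ libraries (log2 fold change -2.44, SE 0.70, adjusted p = 0.0236). With spermidine, mTEChi had it at 7.44 and 16.7 CPM against 0.486 and 1.55 CPM (log2 fold change -3.52, SE 0.91, adjusted p = 0.0268). Dnah6 was called in PBS mTEChi, at 16.02 and 23.3 CPM in WT and 1.74 and 6.22 CPM in Aire-KO (log2 fold change -2.25, SE 0.54, adjusted p = 0.0158). The remaining heavy chains called in Aire-GFP+ cells were Dnah1 (-1.06, SE 0.33, adjusted p = 0.0351) and Dnah7a.

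Dnah7a had 65 counts over the WT and 1 count over the Aire-KO Aire-GFP+ libraries, a ratio of 42.3 with a 95% counting interval of 7.33 to 1695. Its log2 fold changes in mTEChi were -1.18 (SE 1.23) and -1.21 (SE 1.17). Near-identical copies of Dnah7a exist, and reads could be split between them, so its values are uncertain. The light intermediate chain Dnali1 was called in no set, with log2 fold changes of -1.44 (SE 0.56), -1.72 (SE 1.10) and -1.78 (SE 1.15).

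Of the 4 genes of the molecular ruler and the nexin-dynein regulatory complex, 1 was called in Aire-GFP+ cells, 1 in PBS mTEChi and 2 each in spermidine mTEChi and for the mean effect. All genes tested had 22.3%, 5.08%, 4.34% and 12.5% called lower, so the Aire-GFP+ count (25%) was near the share of all genes. Ccdc39, which with Ccdc40 sets the repeat length of the axoneme, was at 2.90, 6.70 and 5.57 CPM in WT and 0.952 CPM and no counts in Aire-KO Aire-GFP+ libraries (log2 fold change -3.47, SE 1.05, adjusted p = 0.0300). In spermidine mTEChi it was at 13.1 and 4.38 CPM in WT and had no counts in Aire-KO, at least 11.6-fold lower (adjusted p = 0.00563). With PBS, mTEChi had it at 4.37 and 7.76 CPM against 0.868 and 1.38 CPM, without a call (adjusted p = 0.101). The 2 genotypes did not overlap in any set.

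Drc1, a scaffold of the nexin-dynein regulatory complex, was called in mTEChi and not in Aire-GFP+ cells. It was at 19.7 and 25.7 CPM in WT and 9.98 and 6.91 CPM in Aire-KO PBS mTEChi (log2 fold change -1.43, SE 0.41, adjusted p = 0.0388). Spermidine-treated mTEChi had it at 20.9 and 24.1 CPM against 9.71 and 5.18 CPM (log2 fold change -1.58, SE 0.42, adjusted p = 0.0310). In Aire-GFP+ cells it was at 12.3, 19.8 and 12.8 CPM in WT and 15.8 and 20.3 CPM in Aire-KO, which overlap (log2 fold change 0.27, SE 0.28).

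Ccdc113 was the 1 member whose Aire-KO libraries lay above all WT libraries in Aire-GFP+ cells (29.3% of all genes tested), at 6.07 and 7.86 CPM against 5.25, 2.64 and 3.59 CPM. Its log2 fold change of 0.87 (SE 0.43) did not pass (adjusted p = 0.139), and in mTEChi its values were -1.41 (SE 0.84) and -2.03 (SE 0.91). The difference between the sorts was not tested, since the 2 tables hold different units. Ccdc40 was not called in any set, with log2 fold changes of -1.23 (SE 0.48), -0.65 (SE 0.93) and -1.56 (SE 0.96).

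Of the radial spoke genes, 3 of 3 were called lower for the mean mTEChi effect, where 12.5% of all genes tested were. With PBS 0 of 3 were called, and with spermidine 1 of 3, where 5.08% and 4.34% of all genes tested were called lower. In Aire-GFP+ cells it was 1 of 2 tested, against 22.3%. By limma-voom Rsph1, Rsph4a and Rsph9 lost their calls for the mean effect. Rsph1, a spoke head protein (chr17:31255019-31277383), was at 13.0, 14.6 and 10.1 CPM in WT and 3.93 and 5.77 CPM in Aire-KO Aire-GFP+ libraries (log2 fold change -1.37, SE 0.33, adjusted p = 0.0128). Spermidine-treated mTEChi had it at 32.9 and 22.8 CPM against 3.40 and 4.66 CPM (log2 fold change -2.78, SE 0.80, adjusted p = 0.0430). With PBS, mTEChi had it at 10.2 and 28.1 CPM against 3.47 and 5.18 CPM, without a call (adjusted p = 0.102). Rsph9 and Rsph4a, both spoke head proteins, had mean mTEChi effects of -1.91 (SE 0.56, adjusted p = 0.0245) and -2.64 (SE 0.79, adjusted p = 0.0256).

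Of the 7 central apparatus genes, Hydin was called lower in every Aire comparison. Hydin (chr8:110266977-110610253), a very large protein of the central pair projections, was at 7.33, 6.17 and 5.39 CPM in WT and 1.07 and 0.946 CPM in Aire-KO Aire-GFP+ libraries (log2 fold change -2.63, SE 0.49, adjusted p = 0.00391). PBS-treated mTEChi had it at 19.7 and 15.04 CPM against 2.60 and 2.07 CPM (log2 fold change -2.89, SE 0.56, adjusted p = 0.00457). With spermidine, mTEChi had it at 22.7 and 8.76 CPM against 3.40 and 3.62 CPM (log2 fold change -2.16, SE 0.55, adjusted p = 0.0237). No library of 1 genotype entered the range of the other.

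Spag17 was called in Aire-GFP+ cells (log2 fold change -3.14, SE 1.07, adjusted p = 0.0461), with 4.56, 3.53 and 2.65 CPM in WT and 0.833 CPM and no counts in Aire-KO. Cfap54 was called in spermidine mTEChi (-2.45, SE 0.56, adjusted p = 0.0145), with 9.21 and 13.1 CPM in WT and 1.94 and 2.07 CPM in Aire-KO. Spag16 had log2 fold changes of -0.95 (SE 0.52), -0.15 (SE 0.60) and -1.07 (SE 0.63), and Spef2 of -0.53 (SE 0.50), -0.96 (SE 0.59) and -1.18 (SE 0.57), none called. Spag6 and Spag6l are near-identical paralogs, so their counts are uncertain, and neither was called.

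Of the 7 doublet microtubule and tether genes, 3 were called in Aire-GFP+ cells and 4 for the mean mTEChi effect, where 22.3% and 12.5% of all genes tested were called lower. Tekt1, a tektin that lines the doublets (chr11:72344722-72362442), was at 6.22, 12.8 and 11.4 CPM in WT Aire-GFP+ libraries, and the Aire-KO libraries held 1 count in all against 311 in WT. That is a ratio of 202 with a 95% counting interval of 36.0 to 8016, and the fitted log2 fold change was -7.29 (SE 0.81, adjusted p = 0.000398). In PBS mTEChi it was at 7.65 and 11.6 CPM in WT with 1 count in Aire-KO (adjusted p = 0.0598), and in spermidine mTEChi at 15.6 and 11.8 CPM against 0.486 and 2.07 CPM (adjusted p = 0.135). Only the mean mTEChi effect of Tekt1 passed, at -4.38 (SE 1.08, adjusted p = 0.00986).

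Tekt4, another tektin (chr17:25454615-25476602), was called in all 4 Aire comparisons. It was at 4.29, 10.5 and 4.35 CPM in WT and no counts and 0.379 CPM in Aire-KO Aire-GFP+ libraries (log2 fold change -4.88, SE 0.96, adjusted p = 0.00511). With PBS, mTEChi had it at 5.83 and 10.2 CPM in WT, and 1 count stood in Aire-KO against 37 in WT, a ratio of 40.01 with a 95% counting interval of 6.75 to 1623 (adjusted p = 0.0147). In spermidine mTEChi it was at 10.6 and 13.1 CPM in WT with no counts in Aire-KO, at least 15.8-fold lower (adjusted p = 0.00607). Counting intervals and floors cover counting error only, since the reads carry no molecular identifiers.

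Cfap52, a protein inside the doublets, was called in Aire-GFP+ cells (log2 fold change -3.10, SE 0.99, adjusted p = 0.0361), with 3.73, 5.82 and 3.50 CPM in WT and no counts and 0.946 CPM in Aire-KO. Its mean mTEChi effect was -3.62 (SE 1.03, adjusted p = 0.0209). Cfap44, a tether protein and another of the genes with X-box letters printed above, passed in the mean mTEChi effect alone, at -3.19 (SE 0.87, adjusted p = 0.0168). In Aire-GFP+ cells it was at 1.80, 1.41 and 0.661 CPM in WT and 0.119 and 0.379 CPM in Aire-KO (adjusted p = 0.0962). Tekt2, Cfap126 and Cfap43 were called in no set, and Cfap126 had a log2 fold change of 0.19 (SE 0.46) in Aire-GFP+ cells.

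Among the other cilia genes, Tppp3 was called in mTEChi and not in Aire-GFP+ cells. Tppp3 (chr8:105467493-105471526), a tubulin polymerization promoting protein, was at 48.1 and 59.7 CPM in WT and 14.8 and 24.2 CPM in Aire-KO PBS mTEChi (log2 fold change -1.45, SE 0.38, adjusted p = 0.0248). Spermidine-treated mTEChi had it at 100.2 and 67.9 CPM against 19.4 and 9.84 CPM (log2 fold change -2.52, SE 0.40, adjusted p = 0.00131). In Aire-GFP+ cells the genotypes overlapped, with 25.3, 40.1 and 21.9 CPM in WT and 19.6 and 37.0 CPM in Aire-KO (log2 fold change -0.04, SE 0.33).

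Ak7, an adenylate kinase of cilia, was called in Aire-GFP+ cells (log2 fold change -1.36, SE 0.44, adjusted p = 0.0370) and in the mean mTEChi effect (-3.31, SE 0.94, adjusted p = 0.0206). Tmem212 had no counts in any of the 4 Aire-KO mTEChi libraries and 4.93 ± 3.66 CPM (SD, n = 4) in the WT libraries, at least 15.1-fold lower (mean effect, adjusted p = 0.0219), although PBS WT replicate 1 had no counts either. Sntn, which encodes sentan of the ciliary tip, was not called and had 1 count over the 4 Aire-KO libraries against 24 in WT, a ratio of 22.2 with a 95% counting interval of 3.63 to 915.

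Many single calls were lost when 1 library was left out. Fewer of all genes tested were called lower in each of those fits too, and most of them left a group with 1 library. The losses can thus not be laid to single replicates or to these members. In every fit that left out 1 library, 6 of the 15 calls in Aire-GFP+ cells remained (Dnah2, Dnah7a, Hydin, Mcidas, Tekt1 and Tekt4), 0 of the 7 in PBS mTEChi, 1 of the 9 in spermidine mTEChi (Tppp3) and 12 of the 20 for the mean mTEChi effect. The 12 were Ccdc39, Cfap54, Dnah2, Dnah5, Dnah6, Drc1, Hydin, Mcidas, Rsph1, Tekt1, Tekt4 and Tppp3. In Aire-GFP+ cells Hydin, Dnaic1, Ccdc39, Cfap52 and Dnah12 were not called when effective transcript length was added to the fit as an offset. Called members with a promoter window held the X-box letters in 5 of 20 cases, and members called in no Aire comparison in 7 of 15.

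Multiciliation regulators that are not members were called in both directions. Of 11 on the list, 7 were called lower and 2 higher in Aire-GFP+ cells. For the mean mTEChi effect 5 of 10 tested were called lower and 0 higher. Both counts of lower calls include Tubb4b, a tubulin and not a regulator, at 218 CPM in Aire-KO and 315 CPM in WT Aire-GFP+ libraries on average. Among all genes tested 22.3% were lower and 19% higher in Aire-GFP+ cells, and 12.5% and 10.3% for the mean effect. Ccno, a cyclin family protein needed to multiply centrioles, was at 39.3 ± 14.3 CPM (n = 3) in WT and 0.380 ± 0.136 CPM (n = 2) in Aire-KO Aire-GFP+ libraries (log2 fold change -6.68, SE 0.50, adjusted p = 7.9e-05). Deup1, a scaffold of the deuterosome on which centrioles multiply, was at 14.3 CPM on average in WT and had 1 count in Aire-KO Aire-GFP+ libraries (adjusted p = 0.00016). In mTEChi the mean effect of Ccno was -5.43 (SE 1.27, adjusted p = 0.0070), which was named after its value was seen. The 2 called higher, named after their values were seen, were E2f5 and Myb, of the factor families that act with Mcidas. E2f5 was at 9.38 ± 3.33 CPM (n = 2) in Aire-KO and 3.69 ± 0.71 CPM (n = 3) in WT Aire-GFP+ libraries (log2 fold change 1.35, SE 0.40, adjusted p = 0.0260), and it was also called higher in PBS mTEChi (1.87, SE 0.54, adjusted p = 0.0400). Myb had a log2 fold change of 0.60 (SE 0.17, adjusted p = 0.0226) in Aire-GFP+ cells.

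Of 52 other axoneme genes, 16 of 49 tested were called lower and 4 higher in Aire-GFP+ cells, and 26 of 50 lower and 1 higher for the mean mTEChi effect. All genes tested had 22.3% lower and 19% higher, and 12.5% and 10.3%. The sum of the 52 overlapped in Aire-GFP+ cells, at 816, 933 and 809 CPM in WT and 772 and 859 CPM in Aire-KO. In mTEChi it was 449 and 675 CPM in WT against 348 and 317 CPM in Aire-KO with PBS. With spermidine it was 716 and 594 CPM against 313 and 315 CPM. In Aire-GFP+ cells Cfap46 had a log2 fold change of -5.13 (SE 0.65), while Capsl had 1.05 (SE 0.14) in the other direction. In mTEChi the smallest p-values were those of Cfap65 (-3.69, SE 0.51), 1110017D15Rik (-4.59, SE 0.77) and Tekt5 (-1.52, SE 0.26). Of the dynein arm assembly factors, 3 of 12 tested were called higher and 2 lower in Aire-GFP+ cells, and 1 of 10 lower in mTEChi. That 1 was Zmynd10, which was at 16.8 CPM in WT and had no counts in the 4 Aire-KO mTEChi libraries, and which fell by 6.23 (SE 0.72) in Aire-GFP+ cells. The sum of the assembly factors was higher in Aire-KO (412 and 351 CPM) than in WT Aire-GFP+ libraries (298, 322 and 300 CPM). In PBS mTEChi it was 253 and 321 CPM in WT and 268 and 268 CPM in Aire-KO. In spermidine mTEChi it was 282 and 281 CPM in WT and 229 and 225 CPM in Aire-KO.

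Of 40 genes of the primary cilium and of intraflagellar transport, which immotile cilia also use, 12 were called higher and 2 lower in Aire-GFP+ cells (30% and 5%, against 19% and 22.3% of all genes tested), with a median of 0.15. For the mean mTEChi effect 2 were called higher and 3 lower (5% and 7.5%, against 10.3% and 12.5%), with a median of 0.02. This list was not tested against the motile cilia genes. Ift172, a transport subunit, had the smallest p-value of the list in Aire-GFP+ cells, at 67.3 CPM in Aire-KO and 25.2 CPM in WT (log2 fold change 1.41, SE 0.20). Sperm tail and spermatid genes were called higher in 2 and lower in 2 of 13 tested in Aire-GFP+ cells, and lower in 1 of 8 in mTEChi.

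Markers of other cell types moved in the same comparisons. The shares of all genes tested were 22.3% lower and 19% higher in Aire-GFP+ cells, and 12.5% and 10.3% for the mean mTEChi effect. Of the airway secretory list, 6 of 7 tested were called lower in Aire-GFP+ cells and 6 of 9 for the mean mTEChi effect. Its summed level was 249 to 674 CPM in WT and 75.1 to 127 CPM in Aire-KO Aire-GFP+ libraries, and Scgb3a2 had no counts in Aire-KO mTEChi. Of the 8 tuft cell genes, 3 were called lower in Aire-GFP+ cells and 7 for the mean mTEChi effect, with sums of 580 to 1311 CPM in PBS WT and 332 to 383 CPM in PBS Aire-KO libraries. The mTEC list itself was called higher in 5 of 12 and lower in 1 in Aire-GFP+ cells, and higher in 8 of 11 and lower in 1 in mTEChi. The fibroblast list was called in both directions in Aire-GFP+ cells, 2 higher and 2 lower of 6 tested, and its sum was 87.6 to 136 CPM in WT and 264 to 344 CPM in Aire-KO. Its gene Dcn was at 273 CPM in Aire-KO and 45.0 CPM in WT on average, and Col1a1 at 0.331 against 32.0 CPM. For the mean mTEChi effect 3 of 7 fibroblast genes were called lower and 0 higher, with sums of 178 to 371 CPM in the 4 WT and 179 to 219 CPM in the 4 Aire-KO libraries. The myeloid and B cell list had 1 gene called higher (Lyz2) and 3 lower in Aire-GFP+ cells, with a sum of 961 to 1391 CPM in WT and 2153 to 2160 CPM in Aire-KO. Lyz2 made up most of that sum, at 2130 CPM in Aire-KO and 1059 CPM in WT. These marker genes were named after their values were seen. The part of these shifts in the motile cilia values was not tested.

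Spermidine gave no call among the motile cilia genes in either genotype. In WT mTEChi 0 of 40 were called by edgeR, DESeq2 or limma-voom, as were 0% of all genes by edgeR, and 1 member had an unadjusted p under 0.05. The median log2 fold change was 0.48, 30 of 40 were fitted above 0, and for 15 members both spermidine libraries lay above both PBS libraries (16% of all genes tested), with 1 below (16.7%). The median was 0.10 without PBS WT replicate 1, 0.79 without PBS WT replicate 2 and 0.25 without spermidine WT replicate 1. The lowest unadjusted p was that of Cfap54, at 9.21 and 13.1 CPM with spermidine and 2.18 and 3.40 CPM with PBS (log2 fold change 2.00, SE 0.53, adjusted p = 0.999).

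In Aire-KO mTEChi 0 of 40 were called by any of the 3 tools, where 0.00543% of all genes were called lower and 0% higher by edgeR, and 1 member had an unadjusted p under 0.05. The median was -0.02, with 7 members without overlap in each direction (17.5% above and 18.5% below over all genes tested). With the Aire-KO libraries fitted alone, only 18 members passed the filter, with a median of -0.13. Of these 0 were called, where 4 of 13465 genes were called higher and 5 lower. The other members were too low in Aire-KO to pass there, so their lack of a call says little. The difference between the 2 genotypes in the spermidine effect was called for 0 of 40 by any of the 3 tools, and for 0% of all genes by edgeR, with 1 member at an unadjusted p under 0.05 and a median of -0.39. That median was -0.14 and -0.76 without PBS WT replicates 1 and 2, -0.23 without PBS Aire-KO replicate 1 and -0.59 and -0.58 without spermidine Aire-KO replicates 1 and 2. A larger Aire effect with spermidine than with PBS was thus not shown.

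Topotecan gave the widest difference between 2 libraries of a group. The edgeR test called 0 of 40 members against DMSO, where 0.652% of all genes were called, 0.195% higher and 0.456% lower. At an unadjusted p under 0.05, 16 members were higher and 1 lower, against 13.9% of all genes in either direction. DESeq2 called 1 member higher, where it called 138 of 18418 genes higher and 277 lower. The limma-voom test called 0 members, with 30 genes higher and 30 lower. The median log2 fold change was 1.30, and 36 of 40 members were fitted above 0. Both topotecan libraries lay above both DMSO libraries for 17 members (19.9% of all genes tested) and below for 1 (19.8%). Aire itself was at 730 ± 126 CPM with topotecan and 1340 ± 227 CPM with DMSO (SD, n = 2 each). The edgeR test called it lower (log2 fold change -0.88, SE 0.14, adjusted p = 0.0125). The part of this in the cilia values was not tested.

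Most of that difference came from 1 library. Topotecan replicate 2 was the highest of all 16 mTEChi libraries for 20 of the 40 members, and 34 members were higher in it than in replicate 1, by a median of 1.39 on the log2 scale where all genes tested had a median of -0.006. Ccdc40 was at 0.994 CPM in replicate 1 and 41.7 CPM in replicate 2, with 3.73 and 3.65 CPM in the DMSO libraries. Tekt1 had no counts in replicate 1 and was at 22.6 CPM in replicate 2, with 0.573 and 1.68 CPM in DMSO. The summed level against DMSO was 0.71 higher on the log2 scale with both libraries and 0.065 without replicate 2. The median member was 0.13 higher without replicate 2 and 1.78 higher without replicate 1.

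Not every member differed from DMSO through replicate 2 alone. Dnah11 was at 28.5 and 17.5 CPM with topotecan and 10.03 and 8.69 CPM with DMSO (log2 fold change 1.29, SE 0.44, adjusted p = 0.194), and Cfap54 at 12.3 and 15.3 CPM against 6.88 and 4.49 CPM (adjusted p = 0.256). Tekt4 had no counts in replicate 1 and 1.91 CPM in replicate 2, below the DMSO libraries at 2.58 and 2.24 CPM. The fibroblast list also stood out in replicate 2, at 1375 CPM against 165 CPM in replicate 1 and 369 and 731 CPM in DMSO. The airway secretory list (330 and 244 CPM) and the tuft list (1199 and 1130 CPM) did not. The part of this in the cilia values was not tested.

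**Figure D4:**
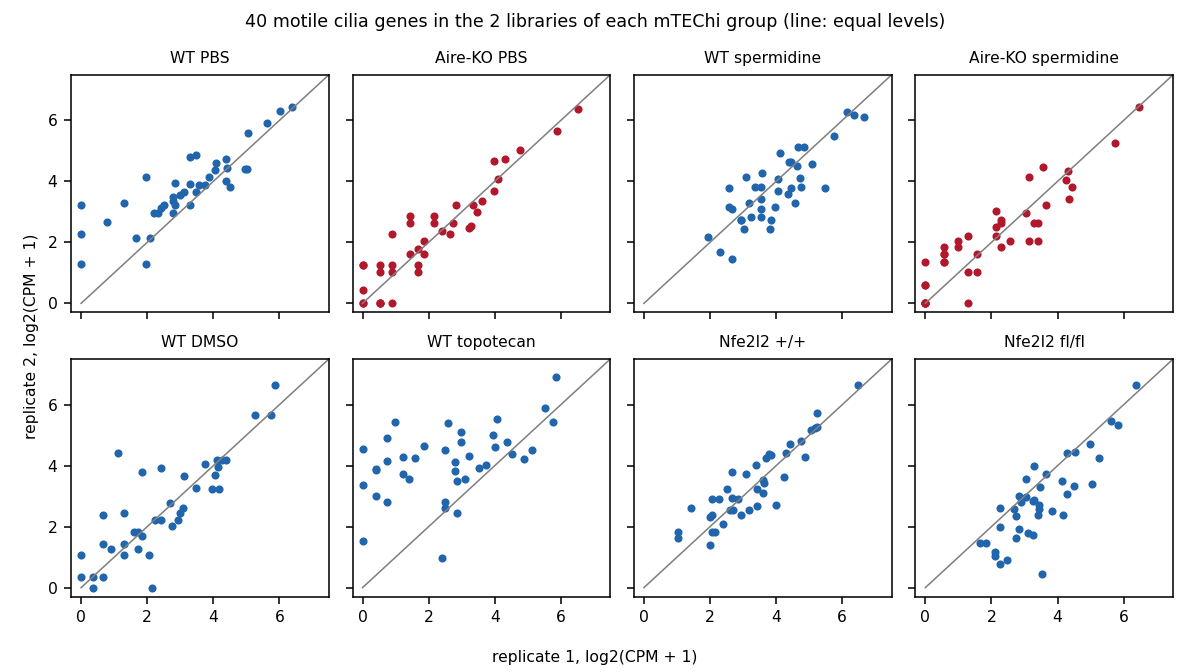
Level of the 40 motile cilia genes as log2(CPM + 1) in replicate 1 (horizontal axis) and replicate 2 (vertical axis) of each mTEChi group; points are genes, the line marks equal levels, and Aire-KO groups are red. In the topotecan group 34 of 40 genes lie above the line, while the PBS Aire-KO genes split evenly, 19 to each side.

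Other groups also shifted as a set between libraries. In PBS WT 34 of 40 members were higher in replicate 2 (median 0.49) and in Nfe2l2 fl/fl 33 were higher in replicate 1 (median of replicate 2 over replicate 1, -0.45), while all genes tested had medians near 0. In Aire-GFP+ WT replicate 2 exceeded replicate 1 for 30 members and replicate 3 for 30. In the 6 control mTEChi libraries the coefficient of variation ran from 20.4% for Tppp3 to 126% for Sntn, and Cfap52 ranged from 0.280 to 8.73 CPM.

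Deletion of Nfe2l2 in thymic epithelium gave no call. The edgeR test called 0 of 40 members and 0% of all genes, DESeq2 and limma-voom also called 0, and 1 member had an unadjusted p under 0.05. That member was Dnah2, at 36.3 and 37.2 CPM in Nfe2l2+/+ and 22.04 and 20.9 CPM in Nfe2l2 fl/fl (log2 fold change -0.78, SE 0.27, adjusted p = 0.784). Its promoter window was among the 3 with antioxidant response letters, which lie there after the start, at 26 to 34, on the opposite strand. The part of these letters in the Dnah2 values was not tested. The median over members was -0.25, with 0.01 without Nfe2l2+/+ replicate 2, -0.67 and 0.09 without Nfe2l2 fl/fl replicates 1 and 2, and 8 members lay below and 4 above without overlap (17.4% and 16.5% of all genes tested). For Tekt2 and Cfap43, the other 2 members with those letters, the log2 fold changes were 0.78 (SE 1.03) and -0.45 (SE 0.92).

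Reads were not stranded, and exons of 13 members overlap a gene on the opposite strand in the annotation, so reads of the 2 cannot be told apart. These include Dnah2 (Dnah2os), Hydin (Gm26832), Ccdc39 (Ttc14), Dnah11 (Cdca7l), Dnah6 (Gm20560), Dnaic1 (Enho), Spag17 (Spag17os and Wdr3) and Cfap52 (9130017K11Rik). Mcidas, Foxj1, Dnah5, Dnah12, Drc1, Rsph1, Tekt1, Tekt4, Ak7 and Tppp3 have no such overlap.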

How the data were processed

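Bulk Smart-seq2 mRNA libraries of 16 mTEChi and 5 Aire-GFP+ samples were used. The authors deposited raw featureCounts counts per gene for mTEChi. For Aire-GFP+ cells they deposited kallisto estimated counts (expected counts) with TPM and effective lengths per transcript, per the file headers. Build mm10 is named in the submitters' processing notes, as are SAMtools 1.3.1, TopHat2 2.1.1 and STAR. The library kit, per the labels' protocols, marks neither strand nor molecules.

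Of 118489 transcripts, all but 1673 (0.541 to 0.578% of estimated counts) were matched to GENCODE M21 symbols; estimated counts were summed per symbol and rounded, and TPM were summed. Each table was fitted whole in edgeR 4.0.16 (R 4.3.3): TMM scaling, filterByExpr, quasi-likelihood test with 1 mean per group, Benjamini-Hochberg adjustment over all genes tested, calls at an adjusted p below 0.05. All 16 mTEChi libraries shared 1 spread. Scripts were tested on simulated data. Gene coordinates are from GENCODE M21 (GRCm38). Floors use 3 counts over a group; ratios of 1 to 3 counts carry exact 95% intervals.

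The members, gene lists and comparisons were chosen with earlier results of these data known. All 40 members were to be named; of other gene lists, up to 6 genes per Aire comparison with the smallest adjusted p, and exceptions are marked. Cell type markers are given by list: airway secretory, tuft, mTEC and fibroblast lists in the text, and the cTEC, thymocyte, endothelial, erythroid, and myeloid and B cell lists were called lower in 4, 2, 1, 0 and 3 genes and higher in 1, 0, 1, 0 and 1 in Aire-GFP+ cells, and lower in 3, 1, 1, 0 and 1 and higher in 0 for the mean mTEChi effect. Alternatives were other scalings (library totals, relative log expression), no filter, DESeq2 1.42.0, limma-voom 3.58.1, a replicate block, fewer libraries in the fit, an effective length offset, the sum without its 3 highest genes, and leaving out each library. Replicate counts differed by more than counting noise in every group, so no 2 libraries were merged. Per-sample columns left out: 0.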

Additional observations from a re-analysis of the deposited data

How the results depend on the processing

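No called member changed direction under any alternative: of 656 values of called members, 527 kept the call and 129 kept the direction without the call. Scaling by library totals moved the median of all genes tested to -0.51 in Aire-GFP+ cells, -0.24 in PBS, -0.21 in spermidine and -0.23 for the mean effect, and the split of all calls to 1591 higher and 6250 lower, 581 and 1387, 558 and 1081, and 1167 and 3222. No member was called higher in an Aire comparison under any alternative run.

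Members called lower in PBS Aire-KO mTEChi numbered 7, against 15 without a filter, 12 by DESeq2 and 2 by limma-voom. With the compared libraries alone they numbered 12 of 31 tested. Over all genes, 936 of 18418 were called lower, against 1649 of 46903, 1205 of 18418, 305 of 18418 and 1166 of 14668, in that order. For spermidine the 9 became 17 without a filter, 3 by limma-voom and 22 of 37 tested with the compared libraries alone. There the 799 of 18418 genes called lower became 1544 of 46903, 165 of 18418 and 1359 of 14362. For the mean effect the 20 became 10 by limma-voom, and the 2305 of 18418 genes called lower became 1128. Topotecan gave 6 members higher without a filter (348 of 46903 genes) and 1 higher by DESeq2 (138 of 18418 genes). Nfe2l2 gave 1 member lower without a filter (72 of 46903 genes).

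Leaving out 1 library at a time gave 8 to 13 calls in Aire-GFP+ cells (8 without WT replicate 2, 9 without Aire-KO replicate 1), 1 to 4 in PBS (4 and 1 without WT replicates 1 and 2, 1 and 2 without Aire-KO replicates 1 and 2), 1 to 5 in spermidine (5 and 4 without the WT, 1 and 1 without the Aire-KO replicates), 14 to 20 for the mean effect, and 0 to 5 for topotecan (5 without topotecan replicate 1). A group left with 1 library is assumed to vary like the others.

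The summed log2 difference under library totals was -1.05 in Aire-GFP+ cells, -1.09 in PBS, -1.46 in spermidine and -1.27 for the mean effect. Without the 3 highest genes it was -1.04, -1.25, -1.66 and -1.45. Leaving out 1 library gave -1.07 to -0.72 in PBS, 0.12 to 0.48 for spermidine in WT, -0.14 to -0.042 for spermidine in Aire-KO, -0.57 to -0.21 for the difference of spermidine effects, 0.065 to 1.15 for topotecan and -0.36 to 0.079 for Nfe2l2. The cause of these changes was not tested.

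No pairing of libraries by replicate number was seen: replicate differences correlated at -0.01 to 0.05 across genes between groups of a comparison. The labels do not give pairs or batches, and a low correlation cannot show that there were none. With the replicate block, member calls were 15 in Aire-GFP+ cells, 6 in PBS, 8 in spermidine, 20 for the mean effect and 0 elsewhere; Dnah12, Dnah5 and Mcidas lost theirs in the first 3. With the effective length offset, 10 of the Aire-GFP+ members were called, without Hydin, Dnaic1, Ccdc39, Cfap52 and Dnah12. With 2 libraries a group and many members under 10 CPM, a member that did not pass may still differ.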
